A study of Mus musculus with 18 samples.

Results

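Oxidative phosphorylation in the mouse brain was followed through 79 messenger RNAs that encode its subunits from nuclear genes. The members were taken by symbol: the Ndufa, Ndufb, Ndufc, Ndufs and Ndufv genes and Ndufab1 for complex I, Sdha to Sdhd for complex II, the Uqcr genes for complex III, the Cox4 to Cox8 genes whose number is followed by a, b or c for complex IV, and the Atp5 genes for complex V. Among all genes listed, 82 symbols matched, and the 79 with a mean of at least 10 normalised reads were kept among the 15808 genes tested. Complex I has 36 of these members, complex II 4, complex III 8, complex IV 14 and complex V 17. Ndufs5 is listed at 0 in all libraries, Cox7b2 averaged 8.999 normalised reads and Cox8c 0.169, so these 3 stayed out. The symbols miss some subunits, among them Cox4i1 of complex IV and Cyc1 of complex III, and take in a few proteins of other roles. Atp5sl, also called Dmac2, is an assembly component of complex I, Atp5s is a coupling-factor-like protein, Ndufa4 is now counted with complex IV, and Cox7a2l is a supercomplex assembly factor.

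The complexes of the respiratory chain sit in the inner mitochondrial membrane. Complexes I and II feed electrons from NADH and succinate to ubiquinone, complex III passes them to cytochrome c and complex IV to oxygen, while I, III and IV pump protons whose return through complex V drives ATP synthesis. All of complex II and most subunits of the others are encoded in the nucleus, and a few core subunits in mitochondrial DNA. Of 13 symbols looked up for the latter, 0 are listed in the deposited values, so they were not analysed here. Neurons depend on this pathway for most of their ATP, and brain is among the tissues with the highest demand.

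The mice were males of the strain C57BL/6N, aged 6 months (young) or 27 months (old). They drank water with 0.2% carboxymethylcellulose as vehicle, or the same vehicle with apigenin, a plant flavone, at 0.5 mg/mL. Polyadenylated RNA of postmortem whole brain was sequenced, and the labels number the mice of each group; p-values measure the spread between these libraries. How long the mice drank apigenin is not given in the labels. The libraries used are 4 young vehicle, 3 young apigenin, 5 old vehicle and 5 old apigenin, 17 of 18 in all, with 28171596 to 41145635 reads in genes. The column of young apigenin mouse 3 was left out, since its values slip against the gene names after Mrpl14: its correlation across genes with the mean of the other libraries was 0.993 over the 14029 rows before that gene and 0.168 after it. Levels are given in normalised reads, the read count of a gene divided by a factor of its library, and differences on the scale of log2(value + 1).

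Some libraries stood apart. Old vehicle mouse 4 and old apigenin mouse 5 had a mean level of 8 nuclear long non-coding RNAs (Malat1, Neat1, Meg3 and others) of 13.29 and 13.19 on the log2 scale, where the other 15 lay between 11.20 and 12.34. Young vehicle mouse 2 held summed striated muscle markers (Acta1, Ckm, Tnnt3, Myh4) of 958.7 normalised reads, against 206.6 to 310.1 in the other libraries. The ribosomal RNA precursor Rn45s took 3.36% of reads in old apigenin mouse 2. Neuronal markers were abundant in all, with a summed level of 218307 to 245334. The summed level of 5 Hox genes of hindbrain and spinal cord had a median of 490.7 in young vehicle brains (341.7 to 717.9). In old vehicle brains its median was 18.7 (4.23 to 709.2). Under apigenin the median was 91.3 in young (60.5 to 719.0) and 86.9 in old brains (2.07 to 759.9). The part of the tissue taken in the age differences was not tested. In bulk tissue, fewer cells of a type and less RNA per cell cannot be told apart.

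Among the members, complex V and complex IV subunits had the highest levels per length of transcript. Atp5b, the catalytic beta subunit of ATP synthase, led with 21730.3 normalised reads per kilobase (mean over 17 libraries), followed by Cox8a with 17035.6, Cox6a1 with 15490.2 and Atp5a1, the alpha subunit, with 13778.8. In total normalised reads Atp5b had 41635 ± 2878 (SD, n = 17), Atp5a1 34047 ± 2582 and Sdha, the flavoprotein of succinate dehydrogenase, 17579 ± 995.7. Within complex I Ndufb9, an accessory subunit of the membrane arm, had a total of 5634, and the lowest total was that of Ndufc1 with 895.9. Sdha was followed in complex II by Sdhb (3978), the iron-sulphur subunit, and the membrane anchor Sdhd was lowest (2196). In complex III the core proteins Uqcrc1 (8472) and Uqcrc2 (6329) were highest and Uqcrb was lowest (1977). Among the complex IV members Cox8a (9369.6 ± 793.9) and Cox6a1 (8845 ± 792.6) were highest, with a difference smaller than their SD. Cox4i1, which the symbols miss, averaged 14856. The lowest complex V member by symbol was Atp5s (417.5), the coupling-factor-like protein.

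The tissue isoforms of complex IV set the lower end of that range. Cox6a1, Cox6b1, Cox7a2, Cox7b and Cox8a, the isoforms of most tissues, averaged 15490.2, 9404.0, 5504.5, 3254.1 and 17035.6 normalised reads per kilobase. Their partners were far lower: the heart and muscle isoforms Cox6a2, Cox7a1 and Cox8b averaged 220.8, 126.8 and 75.5 per kilobase, and the testis isoforms Cox6b2 and Cox7b2 174.7 and 16.6. Cox8c was listed above 0 in 2 of 17 libraries. Cox7a2l averaged 4035.8 per kilobase. The 3 genes for the same c subunit of the ATP synthase ring were all abundant, with Atp5g3 at 10141.7, Atp5g1 at 5604.1 and Atp5g2 at 3529.4 normalised reads per kilobase. The level of Atp5g2 is less certain, since 38.3% of its 50-base windows occur in other genes.

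**Figure D1:**
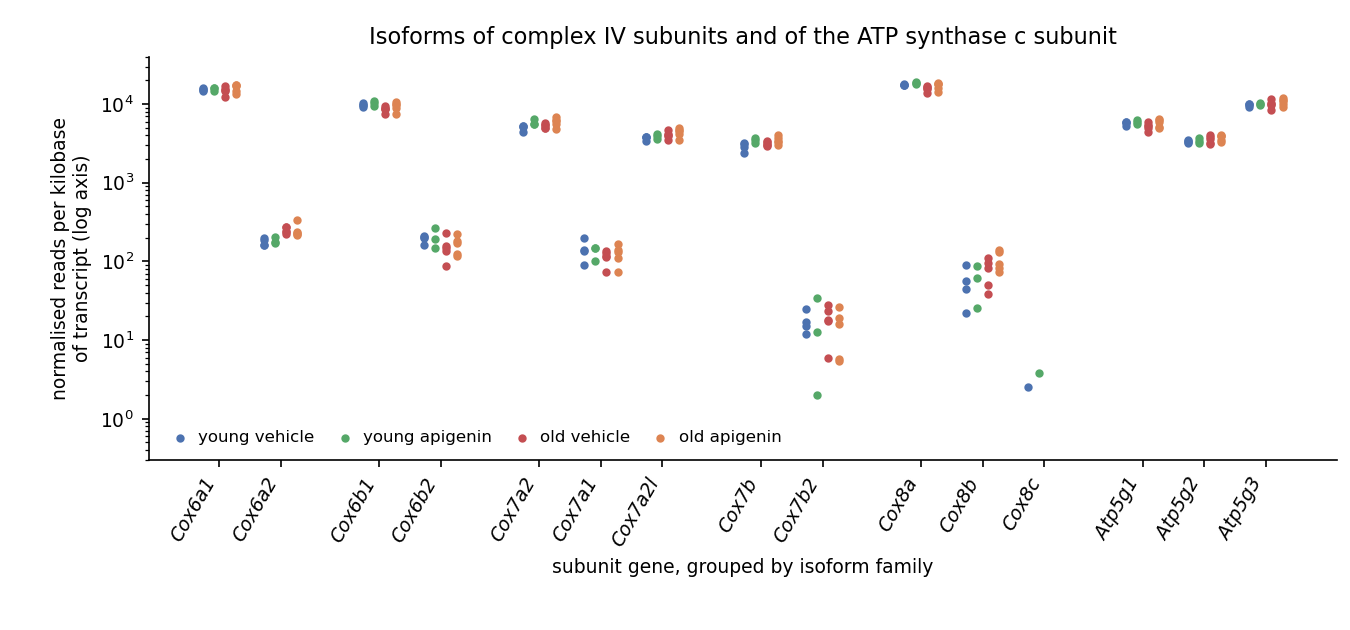
Normalised reads per kilobase of transcript (log axis) for isoform families of complex IV and of the ATP synthase c subunit, 1 point per library, coloured by group; values of 0 are not drawn. The isoforms of most tissues lie highest in each family, while Cox6a2 (mean 220.8), Cox6b2 (174.7), Cox7a1 (126.8) and Cox8b (75.5) lie far below their partners, and Cox6a2 alone of these has its old groups wholly above its young groups.

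The subunit mRNAs moved up and down together from mouse to mouse, whatever complex they belong to. Taking the mean log2 level of each complex in each of the 17 libraries, the 10 pairs of complexes had Pearson r from 0.864 (II with IV) to 0.987 (III with V) and Spearman's rho from 0.743 (I with IV) to 0.973 (III with V). The r were 0.841 to 0.992 within groups, and 0.808 to 0.983 without old vehicle mouse 4 and old apigenin mouse 5. Without the 2 libraries farthest from the median of the second complex, they were 0.714 to 0.975. These values are a description of libraries that share 1 scaling for all genes, and carry no test. Of the 79 members 52 had r over 0.8 with the mean of the others. The 5 under 0.5 were Cox6a2 (0.05), Atp5sl (0.09), Cox6b2 (0.12), Cox7a1 (0.35) and Cox8b (0.43): the low isoforms of complex IV, and the assembly component that shares only the Atp5 name.

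The common level varied more within groups than between group means. Averaged over all members, it was 11.41 ± 0.07 (SD, n = 4) in young vehicle, 11.48 ± 0.09 (n = 3) in young apigenin, 11.43 ± 0.12 (n = 5) in old vehicle and 11.53 ± 0.17 (n = 5) in old apigenin brains. The lowest library, old vehicle mouse 4, lay at 11.24 and the highest, old apigenin mouse 4, at 11.74, a 1.42-fold range. The fold range between highest and lowest mouse was 1.11 in young vehicle, 1.119 in young apigenin, 1.27 in old vehicle and 1.37 in old apigenin brains. The lowest mouse of each old group was a library that stood apart, and without it the range was 1.116-fold in old vehicle (without mouse 4) and 1.238-fold in old apigenin brains (without mouse 5). Group means differed by less than the SD of the old apigenin group, and all 4 groups overlapped.

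**Figure D2:**
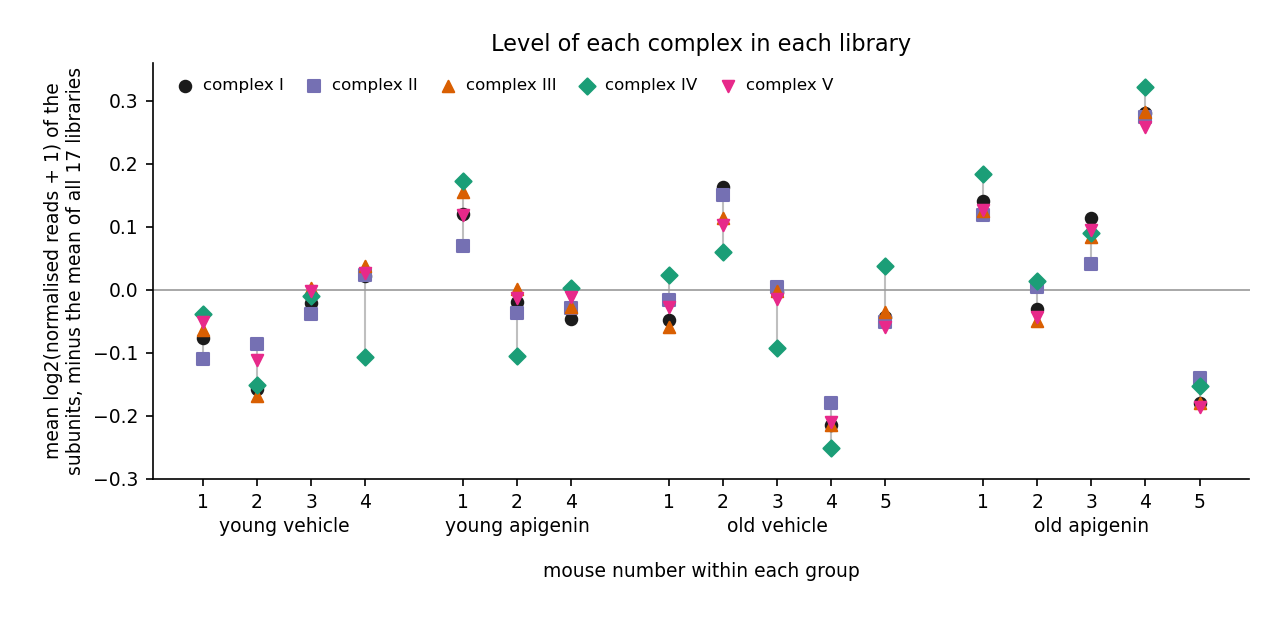
Mean log2(normalised reads + 1) of the subunits of each complex, minus that complex's mean over 17 libraries, for every mouse (x axis, by group); each symbol is 1 complex and grey lines join the 5 complexes of a mouse. The 5 complexes lie close together in each mouse, with old vehicle 4 and old apigenin 5 low for all and old apigenin 4 high for all.

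Other gene lists, mitochondrial and not, had levels that went with those of the subunits. Among 30 further measures compared over the 17 libraries, the mean of 77 mitochondrial ribosomal proteins had r = 0.969 (rho 0.926) with the mean of the subunits, 9 antioxidant enzymes r = 0.969 (rho 0.897), 17 genes of mitochondrial import r = 0.955 (rho 0.914) and 13 genes of the tricarboxylic acid cycle r = 0.922 (rho 0.929). The 80 cytosolic ribosomal proteins, which have no mitochondrial role, had r = 0.919 (rho 0.792). These lists share libraries and scaling with the subunits, and no relation has a test. With the 2 libraries farthest from the median of the list left out these 5 values were 0.945, 0.941, 0.914, 0.873 and 0.871. The 13 regulators of mitochondrial biogenesis (Ppargc1a, Nrf1, Gabpa, Tfam, Esrra and others) had r = -0.26 (rho -0.08; -0.31 without the 2 farthest), and the neuronal markers r = -0.18 (rho -0.19; -0.14), which was -0.71 without old vehicle mouse 4 and old apigenin mouse 5.

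The nuclear long non-coding RNAs went the other way, with r = -0.69 (rho -0.66). Without old vehicle mouse 4 and old apigenin mouse 5, which are also the 2 farthest from the median, r was -0.44. The number of reads per library had r = 0.18 (rho 0.08; 0.45 without the 2 farthest). Among genes that are no member, the most alike to the subunit mean were Anapc11 (r = 0.968), Chchd2 (0.963), Trmt112 (0.959), Naca (0.959) and Rpl35 (0.958), with transcripts of 885 to 962 bases. The most opposite were Srcin1 (-0.95), Ambra1 (-0.93), Ncor1 (-0.91), Bsn (-0.90) and Acvr2b (-0.90), with transcripts of 3175 to 15938 bases. The members themselves are short, with a median transcript of 760.5 bases against 2814 for the 15219 genes tested that have a length. Across those genes the median r with the subunit mean went from 0.38 in the fifth with the shortest transcripts to -0.39 in the fifth with the longest. The part of transcript length and of the long non-coding RNAs in the common level was not tested.

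**Figure D3:**
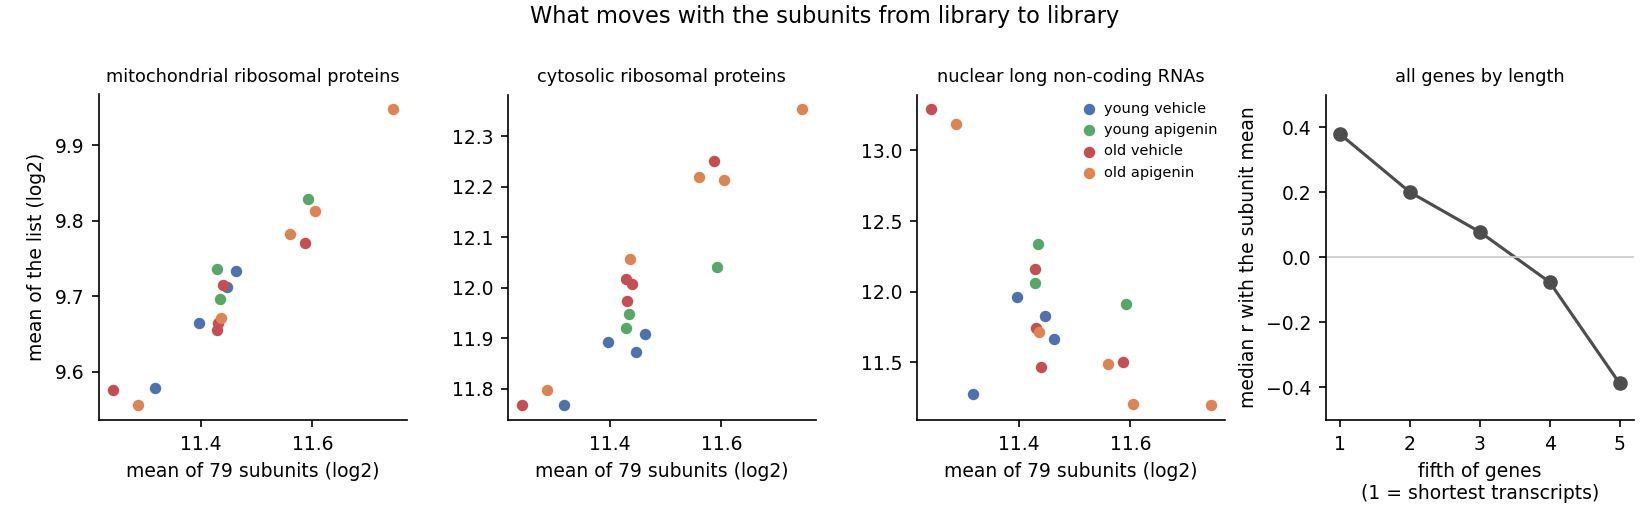
Mean log2 level of 3 gene lists against the mean of the 79 subunits, 1 point per library, and, at the right, the median correlation of all genes with the subunit mean in 5 equal bins of transcript length. Ribosomal protein lists rise with the subunits (r = 0.969 and 0.919), the nuclear long non-coding RNAs run the other way (r = -0.69), with 2 libraries at 13.29 and 13.19, and the median r goes from 0.38 to -0.39 from short to long transcripts.

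Aging under vehicle left the complexes near the level of other genes, and changed 1 subunit. Cox6a2, the heart and muscle isoform of complex IV subunit VIa, known in brain from parvalbumin interneurons, rose with age. Its normalised reads were 126.4, 134.8, 111.5 and 110.0 in young vehicle and 164.7, 160.9, 188.3, 150.1 and 188.7 in old vehicle brains, and these groups did not overlap. The group means were 120.7 ± 11.96 (SD, n = 4) and 170.5 ± 17.2 (SD, n = 5), a log2 difference of 0.49 ± 0.13 (SE) or 1.41-fold (limma, Benjamini-Hochberg adjusted p = 0.0430). It was the only call among 79 members, 1.27%, where 3.93% of all genes tested were called. At an unadjusted p under 0.05 there were 3 members, Cox6a2, Ndufs1 and Atp5d, against 19.4% of all genes. Differences were above 0 for 49 members, 62.0%, against 59.0% of all genes.

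The Cox6a2 call was close to the threshold: it was lost under 13 of 22 other settings, with adjusted p from 0.0537 to 0.254 there, while its difference stayed between 0.36 and 0.57. It was lost with edgeR, and whenever 1 vehicle mouse was left out, old vehicle mouse 4 excepted; young vehicle mouse 2, with high muscle markers, is among these. Summed muscle markers were 216.6 to 958.7 in young vehicle and 243.0 to 266.7 in old vehicle brains, and summed parvalbumin interneuron markers (Pvalb, Kcnc1, Kcnc2, Syt2) 15553 to 25372 and 22598 to 25554; their part in the difference was not tested. In apigenin mice Cox6a2 was 115.7, 140.5 and 121.0 in young and 154.3, 160.5, 225.4, 146.5 and 153.5 in old brains, again without overlap. That difference, 0.40 ± 0.14 (SE), did not pass (limma adjusted p = 0.200), while the mean of both age differences did, at 0.45 ± 0.10 (1.36-fold, limma adjusted p = 0.00636). It kept this call in 29 of 30 other settings and lost it with quantile normalisation (adjusted p = 0.0693). The partner Cox6a1 averaged 8757 ± 300.2 in young and 8535 ± 948.1 in old vehicle brains, a log2 difference of -0.04 (95% interval -0.23 to 0.14).

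Reads of Cox6a2 and Cox6a1 can be told apart by sequence. Cox6a2 lies at chr7:128205435-128206387 on the minus strand (GRCm38, GENCODE), in 3 exons, and 70 of its exon bases overlap Itgad on the other strand; with the use of strand in counting not known, reads there cannot be assigned. Itgad had means of 2.08 normalised reads in young vehicle, 10.8 in old vehicle (1.97 to 39.3), 5.47 in young apigenin and 5.27 in old apigenin brains. The Itgad mean was higher in old than in young mice under vehicle only, where its SD in old mice, 16.0, exceeded the mean. Its part in the Cox6a2 difference was not tested. The coding sequences have 339 and 294 bases with 64.6% identity, and the longest run shared by the transcripts is 12 bases. The last 135 coding bases, where 97 are identical, are printed because the isoforms align there without a gap; capitals mark the bases that differ between the isoforms.
Cox6a1: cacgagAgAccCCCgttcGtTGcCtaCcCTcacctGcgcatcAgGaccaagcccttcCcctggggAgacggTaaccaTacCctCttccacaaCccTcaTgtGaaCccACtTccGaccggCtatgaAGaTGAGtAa
Cox6a2: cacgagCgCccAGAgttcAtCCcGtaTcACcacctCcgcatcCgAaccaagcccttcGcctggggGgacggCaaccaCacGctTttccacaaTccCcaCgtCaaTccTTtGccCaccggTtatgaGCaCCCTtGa

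Pooled aging, the mean of the age differences under vehicle and apigenin, had 2 calls among the members, Cox6a2 and Ndufs1, 2.53% against 12.1% of all genes. At an unadjusted p under 0.05 there were 15 members, 10 higher and 5 lower, 19.0% against 27.1%, and 51 members, 64.6%, were above 0 against 55.1%. The 2 calls were 1 without young vehicle mouse 1 or 2, young apigenin mouse 2 or 4, old vehicle mouse 1 or 2, or old apigenin mouse 1. They were 4 without old apigenin mouse 4 or 5, and 12 without both old vehicle mouse 4 and old apigenin mouse 5. Shares of all genes called in these fits are not given, so the counts do not set the members against other genes.

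Ndufs1, the largest iron-sulphur subunit of complex I, in the arm that takes up electrons, had 4267, 4018, 4434 and 4524 normalised reads in young vehicle and 4775, 4946, 4724, 4433 and 4432 in old vehicle brains. In young apigenin brains it had 4435, 4165 and 4335, and in old apigenin brains 4857, 4762, 4658, 5259 and 4559. The vehicle groups overlapped and the apigenin groups did not. It rose by 0.14 ± 0.04 (SE), 1.10-fold (limma adjusted p = 0.0319), a call lost in 8 of 30 other settings, with adjusted p of 0.0511 to 0.0938 there.

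The 7 core subunits of complex I that carry its electron transfer all had age differences above 0, from 0.04 (Ndufs8) to 0.15 (Ndufv1), with a median of 0.12. Apart from Ndufs1, those with an unadjusted p under 0.05 did not pass, among them Ndufv1, which binds NADH (0.15, limma adjusted p = 0.0912), Ndufv2 (0.14, adjusted p = 0.167) and Ndufs3 (0.12, adjusted p = 0.174). Of the 29 accessory members of complex I by symbol, Ndufa4 among them, 17 were above 0, with a median of 0.04. The grouping by role was made with these values known and has no test. In the other complexes Sdha (0.09, limma adjusted p = 0.156), Atp5a1 (0.10, 0.182) and Uqcrc1 (0.10, 0.242) did not pass either. Cox8b, the low muscle isoform, had the highest pooled difference, 0.71 (limma adjusted p = 0.135), at a mean of 27.2 ± 12.2 normalised reads (SD, n = 17). Sdha had 17033 ± 684.3 in young and 18026 ± 964.8 in old vehicle brains, with overlap.

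The 5 members with an unadjusted p under 0.05 and a pooled age difference below 0 did not pass. Ndufa1, an accessory subunit of the membrane arm, had 2230.2, 2093, 2399 and 2378 normalised reads in young and 2028, 2006, 2043, 1809 and 2179 in old vehicle brains, which overlap in 1 old mouse, and its pooled age difference was -0.19 ± 0.07 (limma adjusted p = 0.0669). Cox8a had 9497, 9512, 9833 and 9623 in young and 8869.6, 9283, 8633, 7705 and 9138 in old vehicle brains without overlap, with a pooled difference of -0.14 ± 0.05 (limma adjusted p = 0.0762). Atp5d, the delta subunit of the central stalk of ATP synthase, had 7844, 8679, 7845 and 7948 in young and 7134, 7536, 7176, 6093 and 7225 in old vehicle brains, also without overlap. Its pooled difference was -0.15 ± 0.06 (limma adjusted p = 0.1000). Ndufab1, the mitochondrial acyl carrier protein, had -0.16 (0.119) and Cox6b1 -0.14 (0.162). Uqcr11 and Atp5g1 stood at -0.09 and -0.10.

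Between old and young apigenin mice, limma called 0 members, against 1.76% of all genes, as did edgeR and DESeq2 on the recovered reads. At an unadjusted p under 0.05 there were 5 members, 4 higher (among them Cox6a2, Ndufs1 and Ndufv1) and 1 lower (Ndufa1), or 6.33% against 13.9%, and 53 members were above 0, 67.1% against 49.8%. With array weights 11 members were called, a count given without the share of all genes called under those weights. The age differences under vehicle and apigenin use different mice. For Ndufv1 they were 0.10 ± 0.07 under vehicle and 0.19 ± 0.08 under apigenin, and for Atp5d -0.20 ± 0.08 and -0.10 ± 0.09; neither interaction was called.

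**Figure D4:**
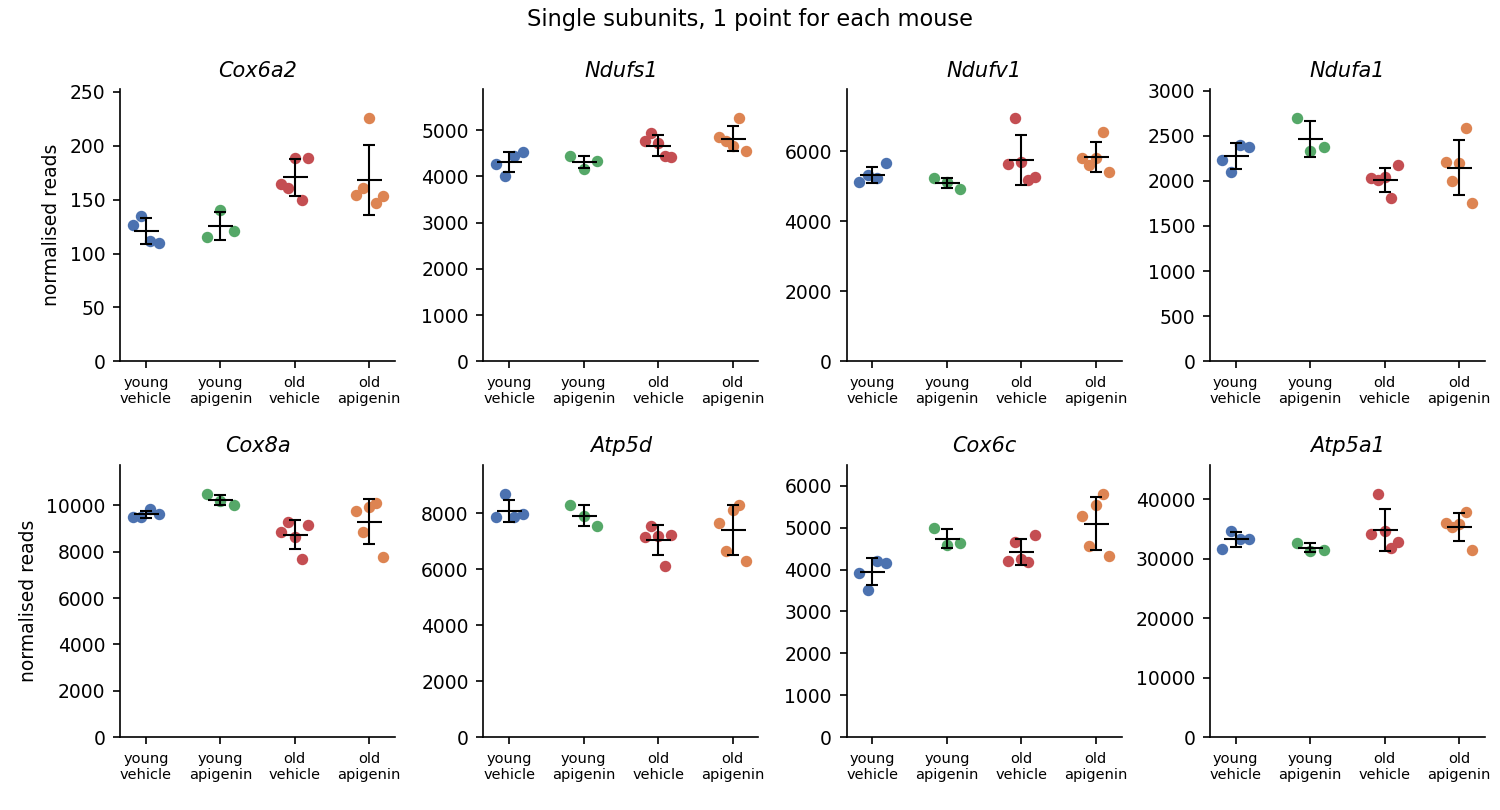
Normalised reads of 8 subunits in every mouse by group (1 point per mouse; black, mean and SD), on axes that start at 0. Cox6a2 is higher in all old mice than in any young mouse, the Ndufs1 and Ndufv1 means are higher in the old groups, the Ndufa1, Cox8a and Atp5d means are lower, and Cox6c means are higher with apigenin at both ages.

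Apigenin in old mice gave differences of 1 sign and small size across all complexes, none of them called. Differences were above 0 for 76 of 79 members, 96.2%, against 52.7% of all genes, with medians of 0.09 in complex I, 0.08 in II, 0.11 in III, 0.11 in IV and 0.10 in V, and 0.01 over all genes. Since the members move together from mouse to mouse, these 76 are not independent observations. The same sign was common in other lists, with 78 of 80 cytosolic ribosomal proteins (median 0.12) and 75 of 77 mitochondrial ribosomal proteins above 0. Import genes had 16 of 17 above 0 and antioxidant genes 9 of 9, whereas glycolysis had 9 of 15, biogenesis regulators 6 of 13 and neuronal markers 1 of 6. Limma called 0 of 79 members and 0.0% of all genes, as did edgeR and DESeq2 on the recovered reads; at an unadjusted p under 0.05 there was 1 member, 1.27% against 2.41%. That member was Cox6c, a small nuclear subunit of complex IV, with 4198, 4656, 4247, 4171 and 4834 normalised reads in old vehicle and 5276, 4556, 5533, 5805 and 4314 in old apigenin brains. The groups overlapped, and the difference was 0.20 ± 0.08 (1.15-fold, limma adjusted p = 0.986).

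Among the members with the smallest unadjusted p in each complex were Atp5j2, subunit f of ATP synthase (0.20 ± 0.10), Ndufa5 (0.16 ± 0.09), Cox7a2 (0.15 ± 0.08), Ndufb3 (0.15 ± 0.09), the anchors Sdhd (0.15 ± 0.08) and Sdhc (0.08 ± 0.08), Atp5j (0.13 ± 0.07), Uqcr11 (0.13 ± 0.08) and the Rieske protein Uqcrfs1 (0.11 ± 0.07). All had the same limma adjusted p of 0.986. Atp5j2 had 2671, 2905, 2811, 2508 and 2778 in old vehicle and 3418, 2723, 3362, 3721 and 2597 in old apigenin brains: mice 1, 3 and 4 lay above all vehicle mice and mice 2 and 5 among them. The members not above 0 were Cox6a2 (-0.03; 95% interval -0.29 to 0.23), Atp5sl (-0.0008) and Sdha (-0.0005). The differences were larger for shorter transcripts, with r = -0.45 (rho -0.46) over 78 members and r = -0.19 (rho -0.31) over 15219 genes; these are across genes, which are not independent.

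The 0 calls in old mice rest on equal weights of the libraries. With limma's array weights, which give old apigenin mouse 1 a weight of 5.62 and old apigenin mouse 5 one of 0.292, 22 members were called, of 988 genes in all. The count above 0 was 73 to 78 under the other scalings, filters and tests (73 with the filter at a mean of 100, which tests fewer members). It was 67 without old vehicle mouse 4, 68 without old apigenin mouse 4, 79 without old vehicle mouse 3 and 76 without both old vehicle mouse 4 and old apigenin mouse 5, with a median of 0.12.

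In young mice apigenin likewise had 0 calls by limma (0.0% of all genes), edgeR or DESeq2. Here 63 members, 79.7%, were above 0 against 63.8% of all genes. Since the members move together from mouse to mouse, these 63 are not independent observations. Averaged over all members, the log2 level was 11.59 in young apigenin mouse 1. It was 11.43 in young apigenin mice 2 and 4, inside the young vehicle range of 11.32 to 11.46. At an unadjusted p under 0.05 there were 4 members, 5.06% against 3.1%. Those 4 were Cox6c, Cox7b and Cox7a2 of complex IV and Ndufa6 of complex I. Cox6c had 3919.8, 3502, 4199.7 and 4160.3 normalised reads in young vehicle and 4996, 4591 and 4635 in young apigenin brains, without overlap, a difference of 0.27 ± 0.09 (1.20-fold, limma adjusted p = 0.999). Cox7b (0.25 ± 0.10), Ndufa6 (0.24 ± 0.11) and Cox7a2 (0.22 ± 0.10) had the same adjusted p. Atp5j2 stood at 0.26 ± 0.13, Ndufa4 at 0.21 ± 0.11, Atp5j at 0.17 ± 0.09, Uqcr10 at 0.17 ± 0.11, Uqcrh at 0.16 ± 0.11, and Sdhc and Sdhb at 0.09. Of the 7 core subunits of complex I, 4 were above 0, with a median of 0.00. Beside them were 25 of 29 accessory members by symbol, Ndufa4 among them, with a median of 0.10. This grouping, too, was made with the values known and has no test. Complex medians were 0.08 in I, 0.07 in II, 0.12 in III, 0.07 in IV and 0.04 in V, with 0.04 over all genes. The relation with length was again r = -0.45 (rho -0.45).

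**Figure D5:**
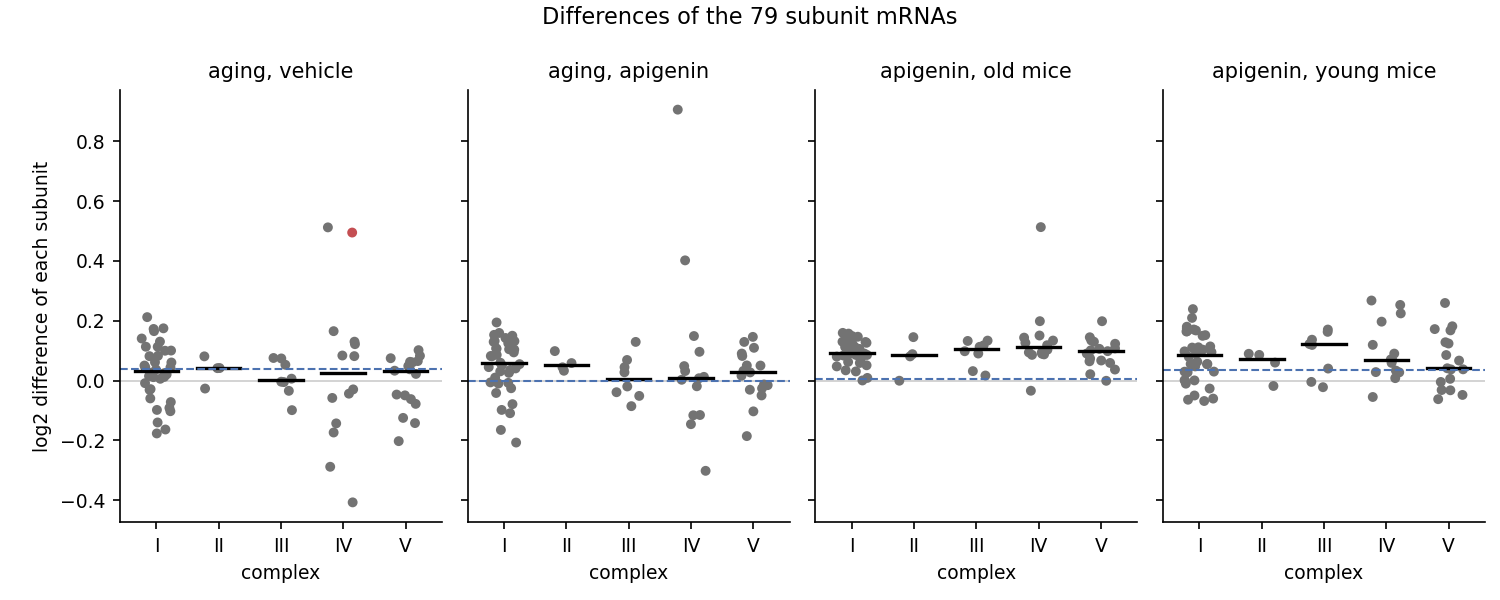
Log2 difference of each of the 79 subunits (points) by complex in 4 comparisons; black bars are complex medians, the dashed line is the median of all genes tested and red marks an adjusted p under 0.05. Age differences scatter to both sides of 0, with Cox6a2 (0.49, vehicle) the 1 called member, while in old mice 76 of 79 apigenin differences lie above 0.

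The response to apigenin was not shown to differ with age for any subunit. The interaction had 0 calls by limma among members and 0.0% among all genes, 0 members at an unadjusted p under 0.05 against 1.24%, and 0 calls by edgeR or DESeq2; 50 members, 63.3%, were above 0 against 40.6%. The smallest unadjusted p in each complex belonged to Ndufa9 (0.13 ± 0.10), Ndufv3 (0.13 ± 0.13), Sdhd (0.09 ± 0.12), Sdha (0.02 ± 0.08), Uqcrfs1 (0.07 ± 0.11), Uqcr10 (-0.07 ± 0.15), Cox7b (-0.11 ± 0.13), Cox7c (-0.10 ± 0.15), Atp5d (0.10 ± 0.12) and Atp5a1 (0.08 ± 0.10). For Cox6a2 the interaction was -0.09, with a 95% interval of -0.50 to 0.32.

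Among genes around the complexes, limma called a few with age and none in the apigenin comparisons or the interaction. Of all genes tested, 12.1% were called in pooled aging and 0.0% in each apigenin comparison, and the counts per list are given as a description beside these shares. Of 14 complex I assembly factors, 4 of complex II and 6 of complex III, 0 were called by limma in any comparison; in pooled aging Coa5, an assembly factor of complex IV, fell by 0.14 (1 of 19, limma adjusted p = 0.0164) and Atpaf1, which assembles the F1 head of complex V, rose by 0.17 (1 of 3, adjusted p = 0.0250). The 8 other subunits and carriers had 0 calls, with Cox4i1 at 0.11 (limma adjusted p = 0.418), Cyc1 at 0.00 (0.972) and cytochrome c, Cycs, at -0.02 (0.890). None of 13 biogenesis regulators was called: Ppargc1a, the coactivator of mitochondrial biogenesis, had -0.12 (limma adjusted p = 0.157), the factors Nrf1 0.03 (0.840), Gabpa -0.13 (0.297) and Esrra -0.07 (0.437), and Tfam, which packs mitochondrial DNA, 0.15 (0.0573). None of 13 tricarboxylic acid cycle, 15 glycolysis and 9 antioxidant genes was called.

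Mitochondrial dynamics had 4 of 10 called in pooled aging, all higher, with a list median of 0.15, beside 12.1% and a median of 0.02 over all genes: Mfn2, a fusion protein, at 0.21 (limma adjusted p = 0.000451), Bnip3 and Fundc1, receptors of mitophagy, at 0.20 each, and Park2, the ubiquitin ligase parkin, at 0.51. Mfn2 was also called under vehicle (0.18, limma adjusted p = 0.0296) and under apigenin (0.24, 0.0112). Of 17 import genes Tomm20 rose (0.20). Of 77 mitochondrial ribosomal proteins Mrpl50 rose (0.28) and Mrpl21 (-0.19), Mrpl34 (-0.28) and Mrps25 (-0.32) fell. Of 80 cytosolic ribosomal proteins 11 rose, from 0.19 (Rps15a) to 0.27 (Rps19), and 0 fell, close to the 12.1% called over all genes. Of these proteins 78 were above 0, beside 55.1% of all genes, with a list median of 0.16, where the median of the subunits was 0.04 and that of all genes 0.02. All 5 oligodendrocyte markers rose with pooled age, by a median of 0.36, and the neuronal marker Map2 fell by 0.15. Gpr17, a receptor of oligodendrocyte precursors, fell by 0.87 (limma adjusted p = 1.1e-05), and was also called under vehicle (-0.89, 0.000671) and under apigenin (-0.85, 0.00235). It was the only call among 3 precursor markers, of which 1 was above 0 in pooled aging (list median -0.02). Under vehicle 2 of the 3 were above 0 (median 0.04), and under apigenin 0 (median -0.15). The part of such cell types in the subunit values was not tested.

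Promoters were read for 65 members from RefSeq (GRCm38.p6), 250 bases before the start, for 4 short motifs on both strands. NRF1 is a transcription factor known to bind promoters of respiratory genes, and its core GCGCATGC (GCATGCGC on the other strand) was in 8 of the 65 (12.3%), beside 4.46% of 11941 genes tested that have a promoter entry. The ETS motif CCGGAAGT, bound by GABP, was in 3 (4.62% beside 5.73%), the YY1 motif AAGATGGC in 1 (1.54% beside 2.16%) and the motif AAGGTCA of estrogen-related receptors in 4 (6.15% beside 3.64%). These are matches of letters and not binding sites. The 8 with the NRF1 core were Atp5g2, Atp5k, Atp5l, Cox6a1, Ndufa11, Ndufa6, Ndufa8 and Sdhb. For Atp5g2, Atp5k, Ndufa6, Ndufa8 and Sdhb the 150 bases before the RefSeq start overlap an exon of their own gene in GENCODE. Parts of 2 promoters that overlap no exon of their own gene are shown, for a membrane-arm subunit of complex I with the NRF1 core read on both strands and the most abundant c subunit gene with the receptor motif; capitals mark the match. Ndufa11 is at chr17:56717612-56717761 (plus strand) and Atp5g3 at chr2:73911327-73911476 (minus strand).
Ndufa11: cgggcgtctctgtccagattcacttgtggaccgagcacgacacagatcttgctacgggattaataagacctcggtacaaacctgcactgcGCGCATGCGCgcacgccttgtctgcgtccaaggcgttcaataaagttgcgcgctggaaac
Atp5g3: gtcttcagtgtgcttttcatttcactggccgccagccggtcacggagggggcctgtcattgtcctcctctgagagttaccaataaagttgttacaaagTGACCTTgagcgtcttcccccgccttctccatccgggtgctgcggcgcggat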

How the data were processed

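Values in the authors' deposited table are a normalised signal, 1 column per mouse. The submitters' processing notes name STAR, DESeq2 and build mm10; how reads were counted, with which annotation and strand setting, and all versions are not given in the labels. In each column every value above 0 was a multiple of 1 constant, the worth of a single read (100% within 0.01 of a read), which gave back the reads, 28171596 to 41145635 per library, for alternatives in edgeR 4.0.16 and DESeq2 1.42.0. Of 24411 rows the last 6, whose values are mostly no such multiples, were left out, and 4 cells are blank.

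For the tests, log2(value + 1) was fitted by limma 3.58.1 (R 4.3.3) with 4 group means over 17 libraries and a mean-variance trend, for 15808 genes with a mean of at least 10, two-sided, with Benjamini-Hochberg adjustment over all genes and a threshold of 0.05. Comparisons were age under vehicle, age under apigenin, apigenin in old and in young mice, their interaction, and pooled aging, the mean of both age differences; those that share a group are not independent. 

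The members and lists were chosen with earlier results of these data known. Members named are those called, the 2 of each complex with the smallest unadjusted p in each comparison, the 2 most and the 1 least abundant of each complex, the isoform groups and a set of catalytic or core subunits; of the lists, set regulators and carriers and the genes that passed. A result this rule would name is not reported here. Lengths, exon overlaps and shared 50-base windows come from GENCODE on GRCm38, with 78 of 79 members matched: 18 members share over 10% of windows with other genes (up to 41.6%, Atp5o), often pseudogenes, and 28 overlap another gene, so their reads may be split. Figures used matplotlib 3.10.9 in Python 3.11.15. Alternatives were other pseudocounts (0.5 and 10), filters, scalings, weights, tests, a replicate block and left-out libraries.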

Additional observations from a re-analysis of the deposited data

Results flagged for a closer look

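Of 108 sets of 4 or 5 mice tested, from 31 named members and the mean levels of the 5 complexes in each group but young apigenin, 6 held a mouse far from the others of its group, where chance alone flags about 1 in 20. Atp5d was high in young vehicle mouse 2, with 8679 normalised reads against 7844 to 7948 in the others, and low in old vehicle mouse 4, with 6093 against 7134 to 7536. Atp5j2 was low in young vehicle mouse 2, with 2328 against 3183 to 3314. Cox6a2 was high in old apigenin mouse 3, with 225.4 against 146.5 to 160.5, Ndufa4 high in old vehicle mouse 2, with 6062 against 4596 to 4995, and Ndufa9 low in young vehicle mouse 1, with 3173 against 3458 to 3487.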

How the results depend on the processing

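The count of members called under vehicle aging (1) was 0 with no filter, with quantile normalisation, with edgeR, with a fit of the 2 groups only and with the replicate block, 2 with array weights and 3 with the first residual principal component as covariate; it was 0 to 1 with 1 mouse left out. With array weights it was 11 under apigenin aging and 22 for apigenin in old mice, each 0 otherwise. The pooled count (2) was 1 with quantile normalisation, 4 with DESeq2, 20 with array weights, 11 with the principal component and 12 without old vehicle mouse 4 and old apigenin mouse 5, an alternative added after seeing the data, like scaling without Rn45s; it was 1 to 4 with 1 mouse left out. The causes were not tested. Shares of all genes called under these settings are not given here, so the counts do not set the members against other genes. The counts for apigenin in young mice and the interaction were 0 in all settings run. The 740 complex medians moved by less than the pooled SD of the complex level between mice within groups (0.06 to 0.18 in single groups). A median below that SD could vanish or turn sign and still count as unmoved. Of the named differences 1418 kept direction and side of the threshold, 22 lost it, 32 gained it and 7 turned sign. In apigenin aging these were Uqcr11 with array weights (0.0119) and Sdhd without old apigenin mouse 4 (-0.0023; up to 0.11 with other mice left out). In the interaction they were Cox7b with array weights (0.0342), Sdha with quantile normalisation (-0.0019) and without old vehicle mouse 4 or old apigenin mouse 4 (-0.0139 to 0.0494 with 1 mouse left out), and Uqcr10 without young apigenin mouse 1 (-0.143 to 0.0154). Mice that share a replicate number had deviations correlated at -0.25 to 0.31, median 0.00. For mice of different groups and different number the values were -0.41 to 0.60, median -0.002. These values cannot decide whether mice of 1 number belong together, and the labels name no batch. The replicate block is given only here.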
